A study of Mus musculus with 2 samples.

Results

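The messages of 8 genes of the tumor necrosis factor (TNF) superfamily were followed through the cells of mouse brain tumors treated with vehicle or Xevinapant, out of 19059 genes counted. The ligand genes Tnf, Tnfsf10 (TRAIL), Fasl, Tnfsf12 (TWEAK), Lta and Ltb, were taken with the receptor genes Tnfrsf12a (Fn14, the TWEAK receptor) and Ltbr (the lymphotoxin beta receptor). They were chosen by gene symbol, and all 8 symbols were in the gene list of every matrix. The tumors grew from mGSC, a line of mouse glioblastoma stem cells that is Trp53+/- and Nf1+/-, placed in the brain of immunocompetent C57BL/6J mice. Both groups carried this line, and they differed in what the mice received by mouth each day for a week, the vehicle or Xevinapant, an antagonist of the inhibitor of apoptosis proteins. Because all tumors came from 1 line, differences between tumor genotypes were not part of the design. The study's methods give female C57BL/6 mice bought at 6 to 8 weeks of age, with no age at the time the tumors were taken.

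TNF superfamily ligands are made as trimers on the cell surface, and several are cut free as soluble cytokines. Tnf, Tnfsf10 and Fasl bind receptors that carry a death domain and can recruit caspase-8, whereas Tnfsf12 binds Tnfrsf12a and the heterotrimer of Lta and Ltb binds Ltbr, receptors that lack it and feed the NF-kB pathways. Lta alone, as a soluble trimer, binds the TNF receptors Tnfrsf1a, which has a death domain, and Tnfrsf1b, which has none. The cellular inhibitors of apoptosis, which Xevinapant and other SMAC mimetics target, keep the TNF receptor complex in a survival mode and hold the noncanonical NF-kB pathway in check, so the cells that supply these ligands set where such a drug meets a death signal. In the brain, microglia and macrophages are the classic source of Tnf, and T and NK cells that of Fasl.

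Ltb, Tnf and Lta are neighbors on chromosome 17. Ltb (ENSMUSG00000024399, plus strand) lies at chr17:35194439-35196320 of mouse build GRCm38 (mm10), Tnf (ENSMUSG00000024401, minus strand) at chr17:35199381-35202007 and Lta (ENSMUSG00000024402, minus strand) at chr17:35203165-35205351, with 3060 bp between Ltb and Tnf and 1157 bp between Tnf and Lta. The others are Tnfrsf12a (ENSMUSG00000023905, minus strand) at chr17:23675445-23677468, Fasl (ENSMUSG00000000817, minus strand) at chr1:161780689-161788495, Ltbr (ENSMUSG00000030339, minus strand) at chr6:125306571-125313885, Tnfsf10 (ENSMUSG00000039304, plus strand) at chr3:27317028-27342427 and Tnfsf12 (ENSMUSG00000097328, minus strand) at chr11:69686250-69695849. The annotation also holds Tnfsfm13, a readthrough gene at chr11:69682577-69696098 that spans Tnfsf12, so counts of Tnfsf12 could include its transcripts.

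The 250 bases before the start site are shown for the 3 neighbors and for Tnfrsf12a, which had the smallest treatment p among the 8 in malignant cells. Of the 3 neighbors, Tnf had its highest mean level in neutrophils, with a wide spread, and Lta and Ltb in T cells. They are RefSeq promoters of build GRCm38.p6, at chr17:35202008-35202257 (minus strand) for Tnf, chr17:35205352-35205601 (minus strand) for Lta, chr17:35194257-35194506 (plus strand) for Ltb and chr17:23677450-23677699 (minus strand) for Tnfrsf12a. Each is written 5′ to 3′, and capitals mark matches to TATAAA or to the kappa-B letters GGGNNNNNCC on either strand.
Tnf: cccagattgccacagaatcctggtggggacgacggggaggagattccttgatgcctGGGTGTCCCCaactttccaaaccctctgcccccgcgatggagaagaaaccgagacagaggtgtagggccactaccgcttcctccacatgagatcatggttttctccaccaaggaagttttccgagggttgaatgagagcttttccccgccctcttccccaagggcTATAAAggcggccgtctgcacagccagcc
Lta: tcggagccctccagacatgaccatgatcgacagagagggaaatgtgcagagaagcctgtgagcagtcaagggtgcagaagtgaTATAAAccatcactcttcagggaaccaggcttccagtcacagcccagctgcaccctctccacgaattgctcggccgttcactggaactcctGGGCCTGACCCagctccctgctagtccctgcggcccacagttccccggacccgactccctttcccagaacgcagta
Ltb: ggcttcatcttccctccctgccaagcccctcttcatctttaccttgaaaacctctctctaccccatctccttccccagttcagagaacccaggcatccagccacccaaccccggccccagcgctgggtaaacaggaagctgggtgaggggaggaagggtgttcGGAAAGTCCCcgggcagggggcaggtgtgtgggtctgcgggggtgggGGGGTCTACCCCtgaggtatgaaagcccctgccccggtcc
Tnfrsf12a: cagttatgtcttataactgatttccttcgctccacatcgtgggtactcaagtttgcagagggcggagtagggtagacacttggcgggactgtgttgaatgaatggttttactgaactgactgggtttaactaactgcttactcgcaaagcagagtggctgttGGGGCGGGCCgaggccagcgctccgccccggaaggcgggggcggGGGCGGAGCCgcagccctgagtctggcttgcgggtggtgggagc
The search covered 300 bases, from 250 before to 50 after the start, in the 7 members with an entry, all except Tnfsf12. TATAAA stood at -29 in Tnf and at -167 in Lta, and 13.6% of 32851 promoters held it. The kappa-B letters were found at -194 and 30 in Tnf, at -76 and -75 (overlapping) in Lta, at -87 and at 3 overlapping positions from -40 in Ltb, at -88 and -44 in Tnfrsf12a, at -193 in Fasl and at -112 in Ltbr, and thus in every member searched except Tnfsf10. They are common, being in 50.8% of all promoters. No member had the AP-1 letters TGANTCA (7.81% of all promoters), and Ltbr alone among the 7 had the hypoxia letters ACGTG (19.6%), on both strands from -125. These are matches of letters, not measured binding sites.

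The deposited matrices held unique molecular identifier (UMI) counts of 56943 barcodes in 8 matrices, 4 per group, with 71835789 to 300206053 UMIs per matrix and a median of 7452 to 14027 UMIs per barcode. After the study's stated limits on genes, mitochondrial UMIs and complexity, without its removal of doublets, 54574 barcodes remained. Matrices of a group that differed by less than 2 times the sampling noise were joined and counted as 1 sample: vehicle 1 and 3 (0.973 times), Xevinapant 1 and 2 (1.82 times) and Xevinapant 3 and 4 (1.91 times), against 4.23 to 7.24 times for the other 9 pairs. This left 3 vehicle samples (Vehicle 1 and 3, Vehicle 2, Vehicle 4) and 2 Xevinapant samples (Xevinapant 1 and 2, Xevinapant 3 and 4). Values per sample are given in that order throughout. The smallest p an exact permutation test can give with 3 against 2 samples is 0.1. The same joins had been made in an earlier analysis of these files. The study's text gives 4 tumors per group, and the labels do not say which matrix is which mouse. Joined matrices could therefore be separate mice, and the p-values measure the spread between the joined samples. Results with the 8 matrices as mice are given beside the main ones below. Batch date, pool and RNA label (total RNA or polyA RNA) changed with the treatment, and their part cannot be told apart from it. File names of the Xevinapant matrices read Vehicle, and here the sample label decided the group. Same-numbered matrices of the groups shared 1413 barcodes. In 1182 of these the lesser copy was at least 10 times smaller, and these copies held 0.101% of all UMIs.

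Cells were gated by at least 3 markers of a class, none of them a member of the 8. The gates held 43588 malignant cells, 1076 microglia, 874 macrophages, 370 monocytes, 317 neutrophils, 90 dendritic cells, 132 T cells, 22 NK cells, 47 B cells, 241 endothelial cells, 460 fibroblasts and 57 mural cells. A further 730 barcodes with markers of several classes and 6570 that passed no gate were set apart from the classes and counted in whole samples. Depth differed between gates, from a median of 1426 UMIs in neutrophils and 1788.5 in T cells to 13859 in malignant cells. Malignant markers in the other gates were at 4.39% to 22.4% of their level in malignant cells. Whether this was RNA of tumor cells or of the classes themselves was not tested. Microglial markers were at a median of 2.86 UMIs per 10000 in malignant cells and 44.8 in microglia. The part of RNA from other cells in the immune ligand UMIs of malignant cells was not tested. Xevinapant samples held 3.86% macrophages, 1.68% monocytes and 1.60% neutrophils among gated cells, and vehicle samples 0.888%, 0.285% and 0.218% (exact permutation p = 0.1 for each, the smallest possible). The Xevinapant means rest largely on Xevinapant 1 and 2, with 6.23%, 2.58% and 2.66%, and in Xevinapant 3 and 4 the shares were 1.49%, 0.789% and 0.544%, above the highest vehicle values of 1.40%, 0.431% and 0.444%. T cells made up 0.143% with vehicle and 0.408% with Xevinapant (exact permutation p = 0.1). The latter mean rests largely on Xevinapant 3 and 4, with 0.584%. The share in Xevinapant 1 and 2 was 0.233%, above the highest vehicle value of 0.190%. Microglia made up 2.10% and 2.39% in vehicle and Xevinapant samples (exact permutation p = 0.6). Larger shares were not confined to immune cells. In the same order, fibroblasts made up 0.479% and 1.89%, endothelial cells 0.390% and 0.691%, dendritic cells 0.0946% and 0.312%, and NK cells 0.0267% and 0.0767%. Malignant cells made up 95.2% and 86.8% (exact permutation p = 0.1 for each of these classes). B cells (0.115% and 0.109%) and mural cells (0.108% and 0.159%) overlapped between groups.

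Which cells carried each message was asked by testing every class against the malignant cells of the same samples. Over 8 classes and 8 genes, 39 of 64 tests passed (60.9%, edgeR's quasi-likelihood test on summed counts, Benjamini-Hochberg adjusted p under 0.05), beside 56.5% of all genes in the same tests. Of these, 36 were higher than in malignant cells (56.2%, beside 26.7% of all genes) and 3 were lower (4.69%, beside 29.8%). By class, 5 of the 8 genes passed in microglia (66.9% of all genes), 4 in macrophages (70.1%), 6 in monocytes (65.5%), 5 in neutrophils (57.2%), 4 in dendritic cells (33.8%), 7 in T and NK cells as 1 class (44.7%), 5 in endothelial cells (53.7%) and 3 in fibroblasts (60%). The median log2 difference over all genes lay between -0.49 and -0.04 in these tests, scaling by library size alone moved it to between -0.90 and -0.19 and DESeq2 to between -0.08 and 0.53, so small differences below are read with that shift in mind. Levels are UMIs per 1000000 UMIs of the class (CPM) and are compared between cells, not between genes.

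**Figure D1:**
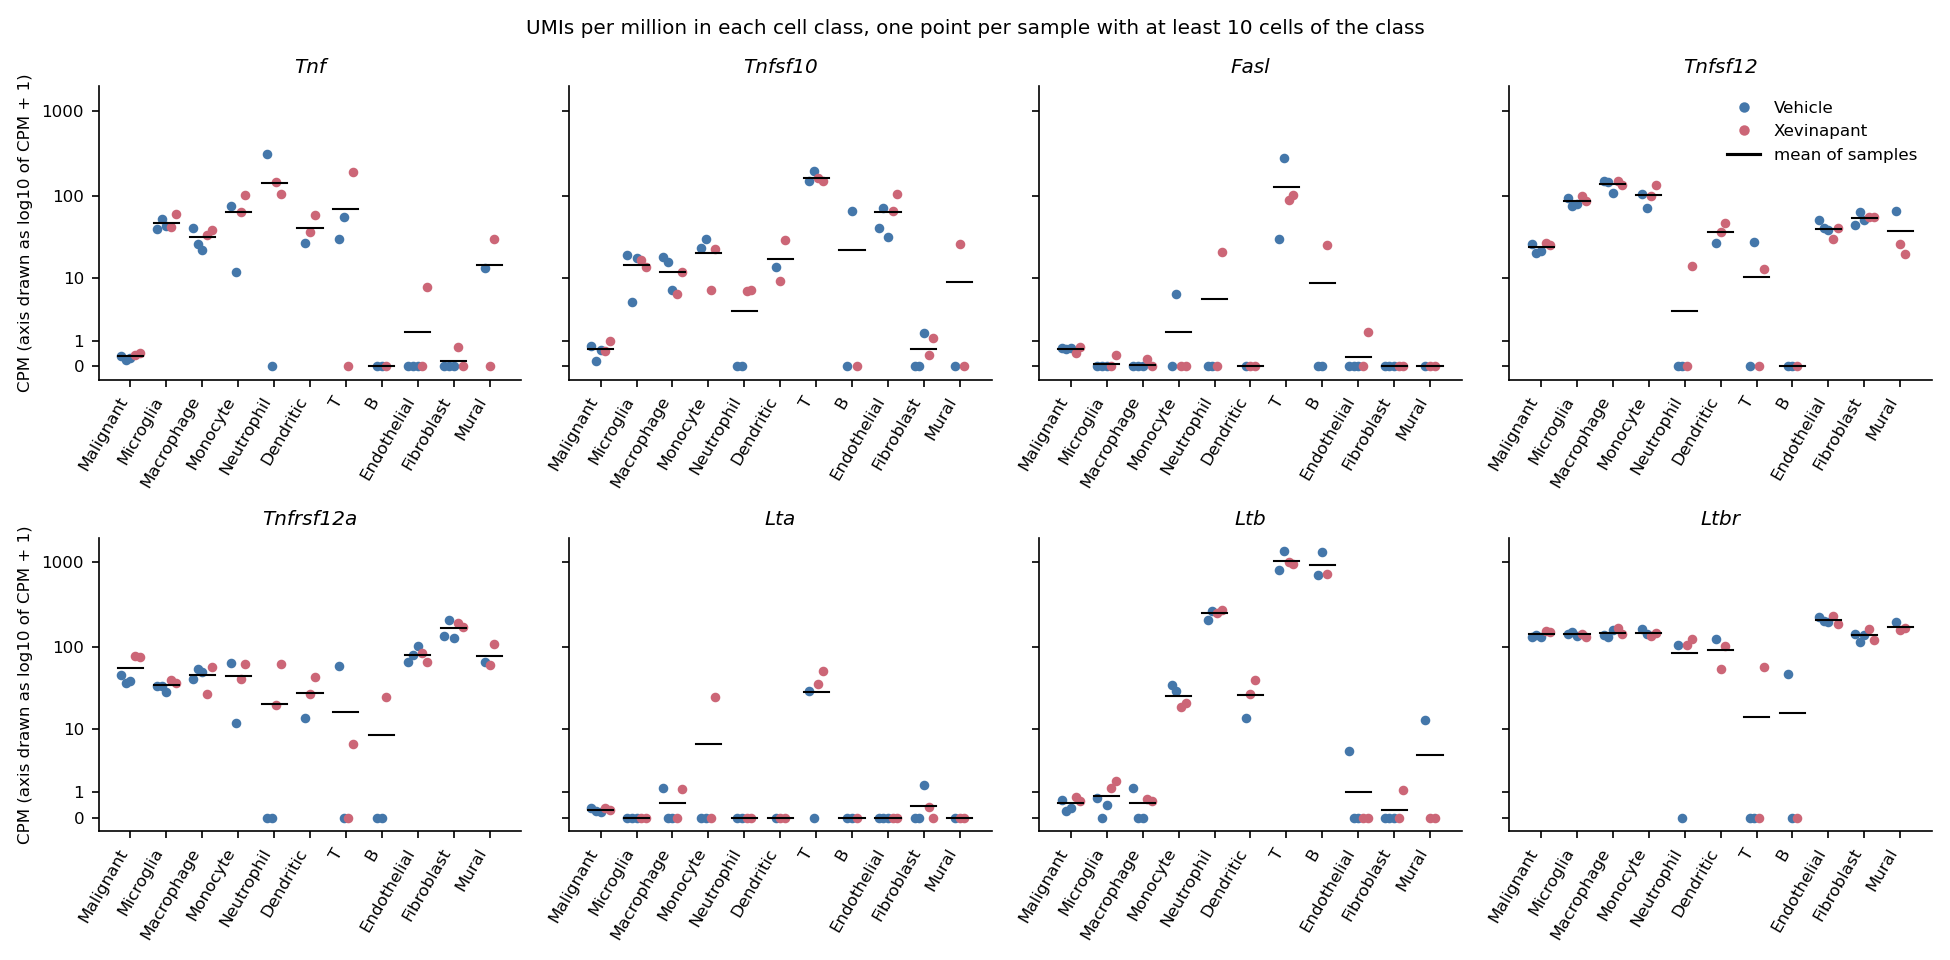
Level of each of the 8 genes (y axis, CPM drawn as log10 of CPM + 1) by cell class (x axis), with a point for each sample that held at least 10 cells of the class (blue vehicle, red Xevinapant) and a line for their mean. Tnf stands high in the myeloid classes and T cells, Ltb in T cells, B cells and neutrophils, Fasl in T cells, and Tnfrsf12a in fibroblasts, while Ltbr is spread over most classes.

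Tnf, the founding cytokine of the family and the ligand of Tnfrsf1a and Tnfrsf1b, was high in the myeloid classes and in T and NK cells. In microglia, it was at 40.3, 52.0 and 43.9 CPM in the vehicle samples and at 41.9 and 60.9 CPM in the Xevinapant samples. Macrophages held 41.2, 26.2 and 22.4 CPM with vehicle and 33.8 and 38.5 CPM with Xevinapant. Malignant cells held 0.308, 0.194 and 0.252 CPM with vehicle and 0.356 and 0.428 CPM with Xevinapant. Every sample of microglia and macrophages thus stood far above every sample of malignant cells, and the treatment groups overlapped in both. The log2 difference from malignant cells was 7.64 (SE 0.27, adjusted p = 2.9e-27) in microglia, 7.20 (SE 0.29) in macrophages, 8.05 (SE 0.32) in monocytes, 9.10 (SE 0.43) in neutrophils and 8.03 (SE 0.55, adjusted p = 1.7e-16) in T and NK cells, all by edgeR's quasi-likelihood test.

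By mean level the myeloid classes were ordered as neutrophils (141 ± 131 CPM, SD, n = 4 samples), monocytes (63.2 ± 37.4, n = 4), microglia (47.8 ± 8.6, n = 5), dendritic cells (40.7 ± 15.8, n = 3) and macrophages (32.4 ± 8.0, n = 5), and each mean lay within 1 SD of the class named before it. Neutrophils varied most, from 314 CPM in Vehicle 1 and 3 to 0 in Vehicle 4, where the gate held 11 cells. Of 90 dendritic cells, 11 held the 26 Tnf UMIs of that class, and 10 of these sat in 1 cell of Xevinapant 3 and 4. T and NK cells held 37 Tnf UMIs in 11 cells, at 27.9 and 40.6 CPM in Vehicle 1 and 3 and Vehicle 4 and at 28.0 and 176 CPM in the Xevinapant samples. In Xevinapant 3 and 4, 1 T cell held 26 of these UMIs, and without that sample the log2 difference was 6.54 and still passed the test. B cells had none in 47 cells, which allows up to 34.6 CPM. The 5 Tnf UMIs of endothelial cells came from 1 cell of Xevinapant 3 and 4, and without that sample the difference from malignant cells (log2 3.27, SE 1.07) no longer passed the test. Fibroblasts, with 2 UMIs and 0.332 CPM (95% Poisson interval 0.0403 to 1.20), had an interval that held the malignant level (pooled 0.319 CPM, 0.282 to 0.360). The 264 Tnf UMIs of malignant cells were in 194 of 43588 cells, 35 of which held 2 or more and 1 of which held 12.

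Detection gave the same picture. Of microglia thinned to 2000 UMIs, 8.08% held a Tnf UMI (23.4% before thinning), as did 5.59% of macrophages (19.1%) and 9.87% of monocytes (19.5%). In malignant cells the share was 0.0591% (0.445%). Shares after thinning in microglia were 7.45% ± 1.22 (SD, n = 3) with vehicle and 7.32% ± 4.38 (n = 2) with Xevinapant (exact permutation p = 1).

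Tnfsf10, or TRAIL, the ligand of the death receptor Tnfrsf10b, was highest in T cells and endothelial cells. T cells held 149.7 and 195 CPM in the vehicle samples with at least 10 T cells, Vehicle 1 and 3 and Vehicle 4, and 161 and 147 CPM in the Xevinapant samples, a mean of 163 ± 22 (n = 4). Endothelial cells held 40.8, 72.1 and 32.05 CPM with vehicle and 66.003 and 105 CPM with Xevinapant, where 25 of all 127 UMIs sat in 1 cell of Xevinapant 3 and 4. Malignant cells ranged from 0.139 CPM in Vehicle 2 to 0.987 CPM in Xevinapant 3 and 4. Every sample of both classes lay above every malignant sample, and the treatment groups overlapped in both.

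The log2 difference of Tnfsf10 from malignant cells was 7.71 (SE 0.48) in T and NK cells and 7.095 (SE 0.36) in endothelial cells, and 5.08 (SE 0.33) in microglia, 4.67 (SE 0.38) in macrophages, 5.12 (SE 0.51) in monocytes and 5.13 (SE 0.85) in dendritic cells, each with an adjusted p under 0.05 by edgeR's quasi-likelihood test. The order of means ran from T cells through endothelial cells (63.2 ± 28.8 CPM, n = 5) to monocytes (20.7 ± 9.74, n = 4), dendritic cells (17.3 ± 10.5, n = 3), microglia (14.4 ± 5.81, n = 5) and macrophages (11.8 ± 5.30, n = 5). B cells, with 1 Tnfsf10 UMI, were left out of this order. Among its last 4 classes, each mean lay within 1 SD of every class named before it. Neutrophils passed the test on 3 UMIs alone, a call lost under 3 alternatives, and the dendritic call was lost without Xevinapant 3 and 4. Fibroblasts held 4 Tnfsf10 UMIs, or 0.665 CPM pooled, beside 0.651 CPM in malignant cells. The 538 Tnfsf10 UMIs of malignant cells were in 396 cells, 91 of which held 2 or more. After thinning, 26.0% of T cells (26.5% before) and 9.20% of endothelial cells (20.3%) held a UMI, against 0.0976% of malignant cells (0.909%). Only 50 T cells were deep enough to thin.

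Fasl, the ligand of the death receptor Fas and a weapon of cytotoxic lymphocytes, was highest in T and NK cells. T and NK cells together held 55.8 CPM in Vehicle 1 and 3, 284 CPM in Vehicle 4, 98.0 CPM in Xevinapant 1 and 2 and 105 CPM in Xevinapant 3 and 4, a mean of 136 ± 101 (n = 4). Vehicle 2 had 7 such cells with 5 Fasl UMIs and was left out of the mean. The vehicle samples spanned the Xevinapant samples on both sides. In NK cells, 10 of 22 held 13 Fasl UMIs between them, and 25 of 132 T cells held 34. The log2 difference of T and NK cells from malignant cells was 7.58 (SE 0.58, adjusted p = 6.6e-14, edgeR's quasi-likelihood test).

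Malignant cells held Fasl at 0.633, 0.574 and 0.646 CPM with vehicle and at 0.423 and 0.704 CPM with Xevinapant, 516 UMIs spread over 468 of 43588 cells. The vehicle samples lay between the Xevinapant samples. In fibroblasts there was no Fasl UMI, which allows up to 0.613 CPM, and microglia had 1 UMI (0.110 CPM, upper bound 0.613), beside 0.624 CPM (0.571 to 0.680) pooled over malignant cells. Neither class differed from malignant cells by the test (adjusted p = 0.078 and 0.090, edgeR's quasi-likelihood test). The 3 Fasl UMIs of neutrophils sat in 2 cells, and their difference from malignant cells turned its sign without Xevinapant 3 and 4.

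Tnfsf12, or TWEAK, the ligand of Tnfrsf12a, was found in every large class and was highest in phagocytes. Macrophages held 148, 144 and 109 CPM with vehicle and 149.6 and 135 CPM with Xevinapant. Microglia held 94.7, 75.1 and 80.5 CPM with vehicle and 98.9 and 85.8 CPM with Xevinapant. Malignant cells held 26.1, 20.6 and 21.7 CPM with vehicle and 27.4 and 25.8 CPM with Xevinapant. Each macrophage sample stood above each microglial sample, and each microglial sample above each malignant one, with the treatment groups overlapping in all 3 classes.

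The log2 difference of Tnfsf12 from malignant cells was 2.99 (SE 0.13) in macrophages, 2.48 (SE 0.16) in monocytes, 2.22 (SE 0.13) in microglia, 1.80 (SE 0.14) in fibroblasts and 0.90 (SE 0.20) in endothelial cells, each past the threshold of edgeR's quasi-likelihood test. Behind macrophages (137 ± 16.8 CPM, n = 5), the order of means was monocytes (102 ± 24.9, n = 4), microglia (87.0 ± 9.81, n = 5), fibroblasts (54.3 ± 6.93, n = 5) and endothelial cells (40.3 ± 7.38, n = 5), and monocytes did not differ from microglia beyond their spread. The lymphoid and granulocytic cells were the exception. T cells held 3 Tnfsf12 UMIs, B cells none and neutrophils 2, and neutrophils were lower than malignant cells by the test (log2 -2.24, SE 0.68), a call on very few UMIs that was lost without Xevinapant 1 and 2. The dendritic call (log2 0.85, adjusted p = 0.0498, edgeR's quasi-likelihood test) was lost under 8 of the alternatives tried.

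Lta, which forms the soluble lymphotoxin trimer and joins Ltb in the membrane form, was the rarest of the 8, with fewer UMIs in gated cells than any other member. T cells held 12 of them in 9 cells, 41.3 CPM pooled (95% Poisson interval 21.3 to 72.1). The log2 difference of T and NK cells from malignant cells was 6.43 (SE 1.09, adjusted p = 1.5e-05, edgeR's quasi-likelihood test). Microglia, neutrophils, dendritic, endothelial and mural cells held no Lta UMI, which in microglia allows up to 0.406 CPM. Monocytes passed the test as well, but 16 of their 17 UMIs sat in 1 cell of Xevinapant 3 and 4, and without that sample the sign turned. Malignant cells had 186 Lta UMIs at 0.225 CPM pooled, beside 0.332 CPM from 2 UMIs in fibroblasts.

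Ltb, the membrane anchor of the lymphotoxin heterotrimer that binds Ltbr, was carried by lymphocytes and neutrophils. T cells held 808 CPM in Vehicle 1 and 3, 1366 CPM in Vehicle 4, 1005 CPM in Xevinapant 1 and 2 and 962 CPM in Xevinapant 3 and 4. B cells held 715 CPM in Vehicle 1 and 3, 1324 CPM in Vehicle 2 and 733 CPM in Xevinapant 3 and 4. Neutrophils held 209, 270.4, 251 and 278 CPM in the 4 samples with at least 10 of them, all except Vehicle 2. T cells (1035 ± 236 CPM, n = 4) and B cells (924 ± 347, n = 3) overlapped, every neutrophil sample lay below both, and vehicle and Xevinapant samples were interleaved.

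The log2 difference of Ltb from malignant cells was 10.54 (SE 0.28) in T and NK cells, 9.14 (SE 0.30) in neutrophils, 5.93 (SE 0.61) in dendritic cells and 5.68 (SE 0.36) in monocytes, all past the threshold of edgeR's quasi-likelihood test. In monocytes, 3 of 5 cytotoxic effector genes were higher than in malignant cells too, among them Prf1 (log2 4.80, SE 1.79), and their part in the Ltb level was not tested. B and mural cells were tested in a fit added after the data were seen, where 2 of 7 genes passed in each (21.5% of all genes in B cells and 29% in mural cells). Ltb was higher in B cells by 10.39 (SE 0.42, adjusted p = 4.2e-26) and Ltbr lower there by the same test, and Tnf and Tnfsf10 were higher in mural cells, on 5 and 3 UMIs. Of T cells thinned to 2000 UMIs, 76.0% held an Ltb UMI (68.2% before), as did 63.2% of B cells (80.9%) and 25.5% of neutrophils (27.1%), against 0.103% of malignant cells (0.668%). Of the 18 Ltb UMIs in NK cells, 13 were in 1 cell. Microglia had 9 UMIs and passed the test narrowly (log2 1.28, SE 0.55), a call lost under 8 alternatives. Of the 3 neighbors on chromosome 17, Tnf thus had its highest mean in neutrophils, with a wide spread (141 ± 131 CPM, SD). Lta was highest by mean in T cells, and Ltb in T cells and B cells, with neutrophils next.

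Tnfrsf12a, or Fn14, the receptor for TWEAK and a gene of injured and migrating cells, was highest in fibroblasts. They held 137, 210.3 and 128 CPM with vehicle and 194 and 172 CPM with Xevinapant. Endothelial cells held 66.3, 81.1 and 103 CPM with vehicle and 85.3 and 66.1 CPM with Xevinapant. Malignant cells held 47.0, 36.9 and 39.5 CPM with vehicle and 79.5 and 76.8 CPM with Xevinapant. All fibroblast samples stood above all malignant samples, and the treatment groups were apart in malignant cells and overlapped in fibroblasts and endothelial cells. They were also apart in microglia, at 34.6, 34.7 and 28.8 CPM with vehicle and 40.7 and 37.0 CPM with Xevinapant (log2 0.30, SE 0.20, adjusted p = 0.84, edgeR's quasi-likelihood test). In the same microglia, genes that respond to tissue dissociation stood at 7.79, 9.12 and 9.34 UMIs per 10000 with vehicle and 14.9 and 14.3 with Xevinapant, and malignant markers at 11.5% and 9.35% of their level in malignant cells, and their part was not tested. Neutrophils held no Tnfrsf12a UMI in any vehicle sample, in 54 cells at a median depth of 1120.5 UMIs. They held 6 and 9 UMIs in the Xevinapant samples, in 263 cells at a median of 1522 UMIs. Of these 15 UMIs, 5 sat in 1 cell of Xevinapant 3 and 4. Such counts were too few for the filter of the treatment test. The log2 difference from malignant cells was 2.26 (SE 0.20, adjusted p = 6.7e-13) in fibroblasts, 0.73 (SE 0.25, adjusted p = 0.013) in endothelial cells and -2.80 (SE 0.80, adjusted p = 0.0044) in T and NK cells, by edgeR's quasi-likelihood test. The endothelial call was lost under 4 alternatives, and the T and NK call rested on 3 UMIs and was lost without Xevinapant 3 and 4.

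Ltbr, the receptor that the lymphotoxin heterotrimer shares with Tnfsf14, was found in every non-lymphoid class. Endothelial cells held 225, 203 and 199 CPM with vehicle and 234 and 189 CPM with Xevinapant. Malignant cells held 132, 140.2 and 132 CPM with vehicle and 156 and 153 CPM with Xevinapant. Microglia (142 ± 7.76 CPM, n = 5), macrophages (149 ± 15.4, n = 5), monocytes (148 ± 11.9, n = 4) and fibroblasts (138 ± 19.8, n = 5) had means within the malignant range. Neutrophils (84.3 ± 56.9, n = 4) and dendritic cells (93.4 ± 35.1, n = 3) were the lowest non-lymphoid classes by mean, and mural cells (175 ± 20.7, n = 3) stood between malignant and endothelial cells. Endothelial samples were all above malignant samples, whereas T cells held 9 Ltbr UMIs, 5 of them in 1 cell, and 0 of 50 thinned T cells had one.

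By edgeR's quasi-likelihood test, Ltbr was higher than in malignant cells in endothelial cells (log2 0.76, SE 0.15, adjusted p = 3.8e-05) and lower in T and NK cells (log2 -2.39, SE 0.36, adjusted p = 4.2e-07), and both kept their direction under every scaling tried. Smaller differences in fibroblasts (0.63), macrophages (0.57), monocytes (0.41) and microglia (0.37) also passed, but without TMM scaling the sign turned in fibroblasts and microglia and the macrophage and monocyte calls were lost, and by DESeq2 the sign turned in monocytes. The cells richest in the ligand Ltb therefore held little of its receptor: T cells stood at 1035 CPM for Ltb, while their Ltbr averaged 14.4 ± 28.8 CPM (n = 4), each read against other classes for the same gene.

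How much each class contributed depends on its number of cells as well as its level. Of the Tnf UMIs in gated cells (161, 77 and 182 in vehicle samples, 384 and 486 in Xevinapant samples), myeloid cells held 70.9% ± 4.85 (SD, n = 3) with vehicle and 79.5% ± 13.8 (n = 2) with Xevinapant, although they made up 2.72% to 13.9% of gated cells. Among them, monocytes supplied 3.06% ± 4.38 with vehicle (8.07%, 0% and 1.1%) and 16.5% ± 3.88 with Xevinapant (exact permutation p = 0.1, the smallest possible), and microglia 49.96% ± 12.7 and 26.8% ± 13.3 (exact permutation p = 0.3). Malignant cells held 28.2% and 15.8% (exact permutation p = 0.1). The monocyte and malignant shares did not overlap between groups, while the microglial shares did. Monocytes themselves were at 0.285% of gated cells with vehicle and 1.68% with Xevinapant. Of their 156 Tnf UMIs, 22 sat in 1 cell of Xevinapant 3 and 4. The monocyte shares of Tnfsf10, Tnfsf12, Tnfrsf12a and Ltbr were at the same exact permutation p = 0.1, so this was not particular to Tnf.

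For Tnfsf10, malignant cells held 53.4% of UMIs with vehicle and 46.2% with Xevinapant, endothelial cells 5.26%, 36.4% and 4.57% in the vehicle samples and 15.0% and 16.4% in the Xevinapant samples, microglia 15.9% and 13.02%, and T and NK cells 3.80% and 6.25%. Of the Fasl UMIs, malignant cells held 93.6% and 86.1%, and T and NK cells 6.05% and 11.5% while making up 0.111% to 0.655% of gated cells. Neutrophils supplied 3.29% ± 1.99 (SD, n = 3) of Ltb with vehicle and 18.8% ± 12.8 (n = 2) with Xevinapant (exact permutation p = 0.1), T cells 24.0% and 28.7%, and malignant cells 47.8% and 32.4%. For Tnfsf12, the share of myeloid cells was 5.88% ± 1.58 and 16.1% ± 11.4 (exact permutation p = 0.1), and for Tnfrsf12a and Ltbr malignant cells held over 93% in both groups (97.2% and 93.8%, and 97.9% and 93.6%). None of 96 shares could pass an adjusted threshold with 3 against 2 samples. A share depends on the cells of all classes as well as on their levels: for Tnf in microglia, the share of UMIs was lower with Xevinapant while the class was at 2.10% and 2.39% of gated cells and at 45.4 and 51.4 CPM. For Ltb, neutrophils were at 0.218% and 1.60% of gated cells and at mean levels of 240 and 265 CPM.

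**Figure D2:**
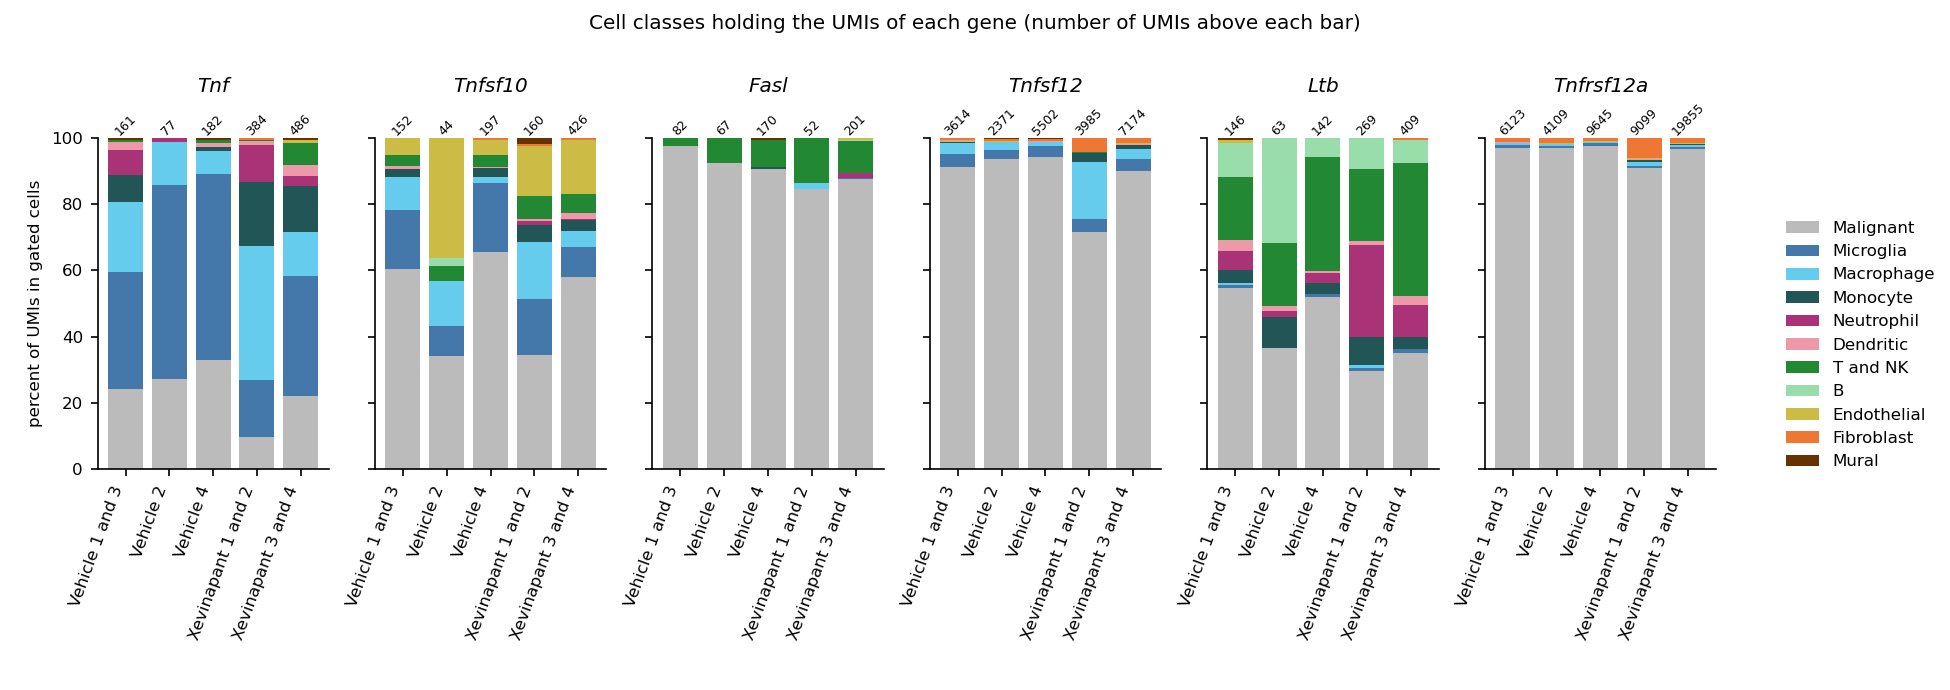
Share of each gene's UMIs (y axis, percent of UMIs in gated cells) held by each cell class (colors) in every sample (x axis), with the number of UMIs above each bar. Tnf comes mostly from myeloid classes in every sample, Fasl outside malignant cells mostly from T and NK cells, and Tnfrsf12a nearly all from malignant cells.

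Whether Xevinapant changed these messages was tested within each class and over all cells of a sample. None of 33 tests within classes and none of 8 over whole samples passed (edgeR's quasi-likelihood test, Benjamini-Hochberg adjusted p under 0.05), with 2 and 2 at an unadjusted p under 0.05. Of all genes, 11.8% had an unadjusted p under 0.05 in malignant cells and 16.7% over whole samples. DESeq2 called 1 within classes and 1 over whole samples. Among all genes, edgeR called 0% in malignant cells, 0.00958% in microglia, 1.09% in macrophages, 0% in monocytes, neutrophils and T and NK cells, 0.307% in endothelial cells, 0.0217% in fibroblasts and 0% over whole samples. DESeq2 called 2.12% of genes in malignant cells and 5.19% over whole samples, edgeR with the 8 matrices as mice 5.39% and 9.16%, and the same with the matrix number as a block 0.75% and 0.00663%.

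**Figure D3:**
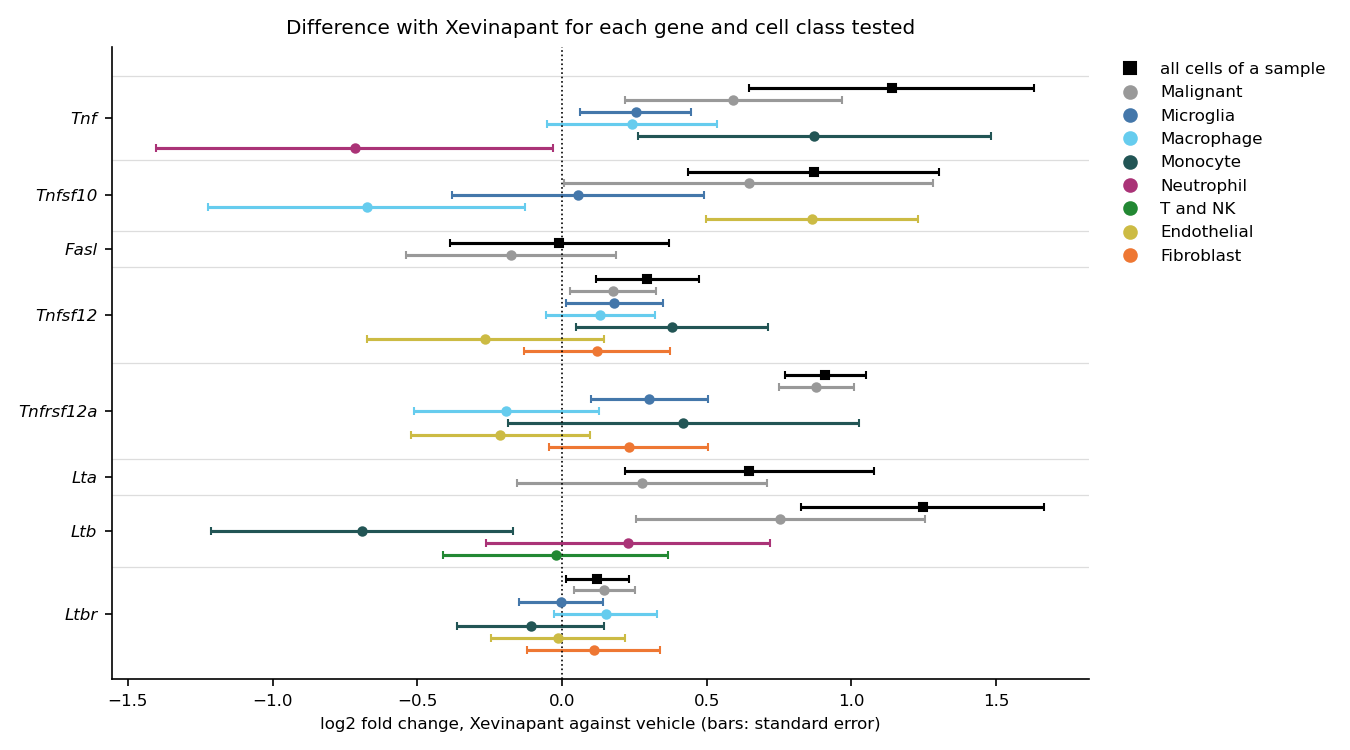
Difference with Xevinapant (x axis, log2 fold change against vehicle) for each gene (y axis) in each class tested and over all cells of a sample (black squares), with bars for the standard error. Tnfrsf12a in malignant cells (0.88) and over all cells (0.91) lies farthest from 0 relative to its error, and no difference passed the adjusted threshold.

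Tnfrsf12a had the smallest p of the 8. With 47.0, 36.9 and 39.5 CPM in vehicle samples and 79.5 and 76.8 CPM in Xevinapant samples, its log2 difference in malignant cells was 0.88 (SE 0.13, unadjusted p = 0.00023, adjusted p = 0.34, edgeR's quasi-likelihood test). It ranked 7 of 14649 genes by p, with 1729 genes (11.8%) at an unadjusted p under 0.05. DESeq2 gave 0.86 with an adjusted p of 3.3e-05, and edgeR with the 8 matrices as mice 0.84 with an adjusted p of 0.0048 (0.026 with the matrix number as a block). The log2 difference lay between 0.81 and 0.97 under all 15 alternatives tried in malignant cells. Over whole samples, 51.5, 39.9 and 41.4 CPM with vehicle stood against 91.3 and 82.1 CPM with Xevinapant (log2 0.91, SE 0.14, adjusted p = 0.25, edgeR's quasi-likelihood test). Both Xevinapant samples were above all vehicle samples on each scale, and how many of all genes were apart in this way was not counted. Of malignant cells thinned to 2000 UMIs, 7.29% ± 0.90 (SD, n = 3) held a Tnfrsf12a UMI with vehicle and 13.2% ± 0.20 (n = 2) with Xevinapant (exact permutation p = 0.1, the smallest possible), and 35.1% did over all samples before thinning.

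Other measures of the malignant cells moved with the same groups. Summed mesenchymal-like (MES-like) marker UMIs per 10000 were 5.05, 4.71 and 4.15 with vehicle and 10.1 and 6.49 with Xevinapant. A subgate took the highest 10% of malignant cells of all samples by the marker share of 1 list, with at least 3 markers. Cells of more than 1 subgate were set apart. By this cut on the same markers, not a second measure, MES-like cells made up 3.28%, 2.21% and 2.26% against 8.06% and 5.11% of malignant cells. Summed UMIs of 10 genes that respond to tissue dissociation were at 5.96, 4.999 and 5.02 per 10000 with vehicle and at 14.0 and 11.7 with Xevinapant. All 10 of these genes had an unadjusted p under 0.05 in malignant cells with a median log2 difference of 1.36, beside 0.01 over all genes, and none passed the adjusted threshold of edgeR's quasi-likelihood test. Both measures were higher in each Xevinapant sample than in any vehicle sample, and batch date and RNA label differed with them. What moved either measure was not tested.

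Within malignant cells, Tnfrsf12a followed both measures. Cells with a MES-like marker UMI were ranked by their share and cut into 5 equal bins, and from the lowest to the highest bin the level went from 24.1 to 95.4 CPM with vehicle and from 35.6 to 155 CPM with Xevinapant. Over 5 such bins of the dissociation share it went from 22.6 to 124 CPM with vehicle and from 31.6 to 172 CPM with Xevinapant. Inside each bin, and in cells with no such UMI, both Xevinapant samples stayed above all vehicle samples. Log2 ratios of the group means ran from 0.49 to 0.75 along the MES-like share and from 0.34 to 0.73 along the dissociation share. A share of a cell's UMIs depends on its depth too. Neither depth nor the share left to differ inside a bin was compared between groups, so the bins do not hold these measures equal. By subgate, Tnfrsf12a averaged 98.0 CPM with vehicle and 135 CPM with Xevinapant in astrocyte-like (AC-like) cells, 127 and 192 CPM in MES-like cells, 17.0 and 29.4 CPM in neural progenitor-like (NPC-like) cells, and 34.7 and 63.0 CPM in the 36313 malignant cells of none of the 3. The groups overlapped in MES-like cells (exact permutation p = 0.3) and in 232 cells of more than 1 subgate (52.7 to 251 CPM with vehicle, 183 and 214 CPM with Xevinapant, exact permutation p = 0.7), and not in the other 3 (p = 0.1 each).

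**Figure D4:**
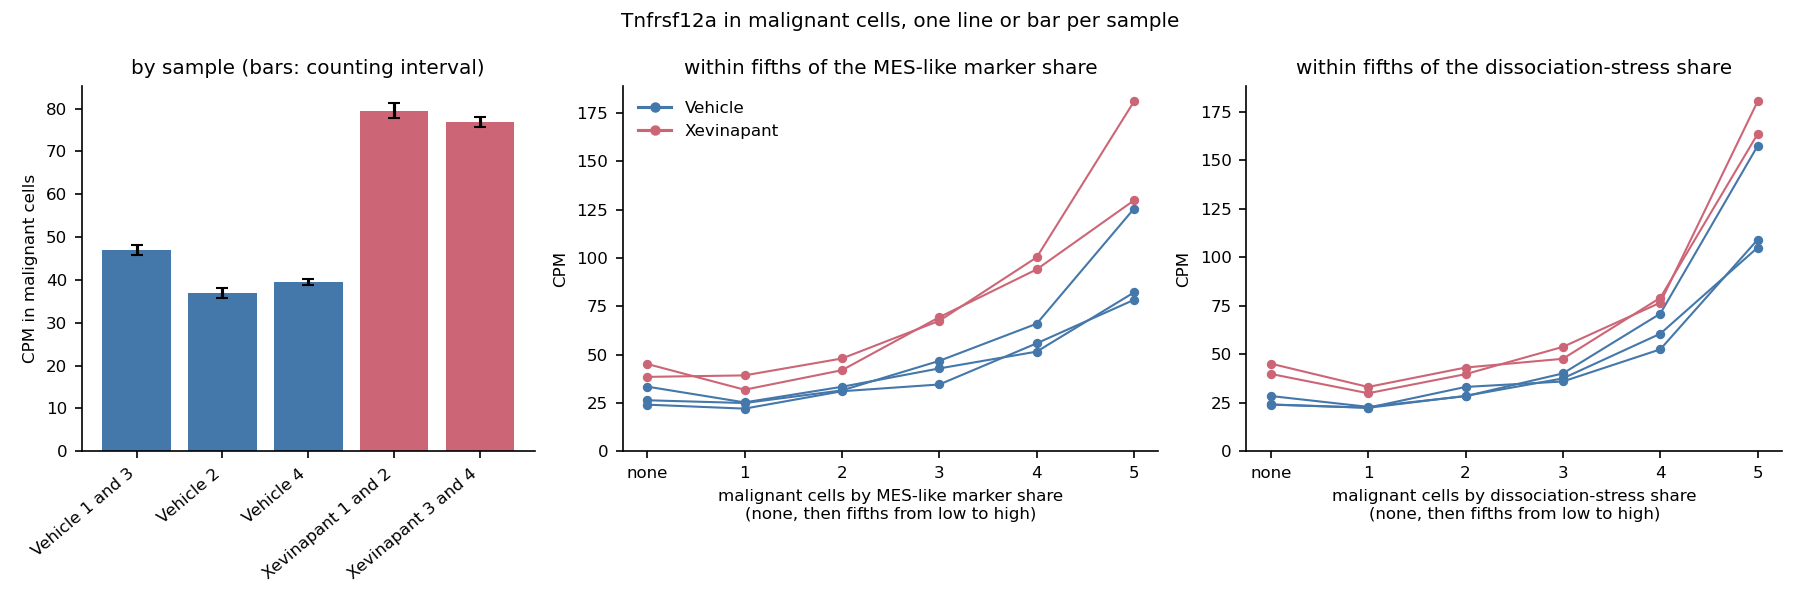
Tnfrsf12a in malignant cells (y axes, CPM): by sample with 95% counting intervals (left), and in cells with none and then 5 bins, from low to high, of the MES-like marker share (middle) and of the dissociation-stress share (right), with a line per sample (blue vehicle, red Xevinapant). Xevinapant samples lie above vehicle samples in every bin, and the level climbs toward the highest bin in all samples.

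Ltbr and Tnfsf12 also differed between malignant subgates. Ltbr averaged 184 ± 18.8 CPM in AC-like cells and 111 ± 12.9 CPM in MES-like cells (n = 5 each). Tnfsf12 averaged 43.4 ± 4.55 CPM in AC-like cells, 19.9 ± 4.71 CPM in MES-like cells and 23.1 ± 3.003 CPM in cells of none of the 3. Every AC-like sample was above every other for both genes in these pairs of subgates. Ltbr in malignant cells, at 132, 140.2 and 132 CPM with vehicle and 156 and 153 CPM with Xevinapant, differed by a log2 of 0.15 (SE 0.11, adjusted p = 0.58, edgeR's quasi-likelihood test).

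No ligand passed the test in the classes where it was tested. In T and NK cells, Ltb alone among the 8 had enough counts for the filter, so Tnf, Fasl, Lta and Tnfsf10 were not tested there. Dendritic, B and mural cells, with 1 sample in a group, were not tested for a change within the class for any gene. Tnf differed by a log2 of 0.25 (SE 0.19) in microglia, 0.24 (SE 0.29) in macrophages, 0.87 (SE 0.61) in monocytes and -0.72 (SE 0.69) in neutrophils. Tnfsf10 in endothelial cells had a log2 difference of 0.86 (SE 0.37, unadjusted p = 0.027, adjusted p = 0.43, edgeR's quasi-likelihood test), with 1 cell of Xevinapant 3 and 4 holding 25 of the 127 UMIs and dissociation genes at 8.62, 9.60 and 7.94 per 10000 with vehicle and 22.2 and 12.4 with Xevinapant; their part was not tested. Tnfsf12 lay between -0.26 in endothelial cells and 0.38 in monocytes, and Ltb at -0.02 (SE 0.39) in T and NK cells and 0.23 (SE 0.49) in neutrophils. Over whole samples, Ltb went from 1.29, 0.649 and 0.718 CPM with vehicle to 2.47 and 1.89 CPM with Xevinapant (log2 1.25, SE 0.42, adjusted p = 0.25, edgeR's quasi-likelihood test) and Tnf from 2.01, 0.802 and 0.9995 CPM to 3.70 and 2.11 CPM (log2 1.14, SE 0.49, adjusted p = 0.31, by the same test). Both Xevinapant samples lay above all vehicle samples for each gene, beside the larger shares of most non-malignant classes given above. The same held over whole samples for Tnfsf10, Lta, Tnfrsf12a and Ltbr, and not for Fasl and Tnfsf12. How many of all genes were apart in this way was not counted, so whether these genes stand out from the rest cannot be told. Fasl over whole samples had a log2 difference of -0.01 (SE 0.38).

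Whether the change in Tnfrsf12a differed between classes was tested directly. The difference from the malignant change was -1.07 on the log2 scale in macrophages (SE 0.39, unadjusted p = 0.010, adjusted p = 0.35) and -1.09 in endothelial cells (SE 0.44, unadjusted p = 0.020, adjusted p = 1), by edgeR's quasi-likelihood test. These 2 were the only ones at an unadjusted p under 0.05 among 64 such tests, and none passed after adjustment by edgeR or DESeq2. The 64 include 8 in dendritic cells, which had 1 vehicle sample. They also include genes without a UMI in a class, such as Lta in microglia and Fasl in fibroblasts. Such tests could hardly show a difference. Among all genes, 0.0712% passed in fibroblasts and 0% in the other classes. In macrophages, dissociation genes stood at 39.1 per 10000 in Vehicle 4 and at 14.3 to 22.3 in the other samples.

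The rest of the pathway was read from lists. Among all genes in the same tests, 66.9% passed in microglia, 70.1% in macrophages, 65.5% in monocytes, 57.2% in neutrophils, 44.7% in T and NK cells, 53.7% in endothelial cells and 60% in fibroblasts, either way. Of 20 other TNF receptors tested against malignant cells, 10 were higher and 2 lower in microglia, 11 and 3 in macrophages, 12 and 2 in endothelial cells and 12 and 1 in fibroblasts, with median log2 differences of 0.85, 1.09, 3.95 and 2.83, beside medians over all genes between -0.15 and -0.04. The share of receptors called in microglia and macrophages did not exceed that of all genes. Tnfrsf1b, the TNF receptor of immune cells, was higher by 7.71 (SE 0.30) in microglia, 8.32 (SE 0.31) in macrophages and 8.90 (SE 0.33) in neutrophils on the log2 scale. Cd40, a costimulatory receptor, led in endothelial cells (9.01, SE 0.33) and dendritic cells (9.39, SE 0.47), and Cd27 in T and NK cells (12.78, SE 0.73). Of 5 other TNF ligands tested, all were higher in macrophages and monocytes, 4 in microglia and 3 in neutrophils, where Tnfsf14, the second ligand of Ltbr, was higher by 11.87 (SE 0.58).

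Of 12 death signaling genes, 8 were higher and 3 lower in microglia, 7 and 3 in macrophages, 8 and 1 in T and NK cells and 6 and 4 in endothelial cells, with median log2 differences of 1.19, 1.44, 1.16 and 0.53, beside -0.12, -0.09, -0.26 and -0.15 over all genes. Casp8, the initiator caspase of death receptors, and Ripk3, the kinase of necroptosis, were low in malignant cells (1.66 and 0.36 CPM, means over samples). In microglia their means were 97.2 and 25.4 CPM, with log2 differences of 6.27 (SE 0.17) and 6.51 (SE 0.20). Of 9 genes that cut, traffic or degrade TNF ligands and their messages, 6 were higher and 2 lower in microglia, among them Rhbdf2, which brings the TNF-cleaving protease to the surface (7.997, SE 0.21), Zfp36, which destabilizes Tnf mRNA (3.91, SE 0.18), and Timp3, which inhibits that protease (-2.87, SE 0.31). All 5 cytotoxic effector genes were higher in T and NK cells, Ifng by 13.24 (SE 0.96), Prf1 by 12.89 (SE 0.76) and Nkg7 by 12.57 (SE 0.54), and none of the 5 was used to gate them. Of 15 genes of the NF-kB response, 10 were higher in each of microglia, macrophages and monocytes, with 3, 2 and 2 lower.

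With Xevinapant, few genes of these lists passed. Ripk3 rose in macrophages (log2 1.13, SE 0.25, adjusted p = 0.044) and Vcam1, an adhesion molecule, fell there (-0.94, SE 0.21, adjusted p = 0.043), by edgeR's quasi-likelihood test. They were 1 of 12 death signaling genes and 1 of 14 NF-kB response genes tested there. In that gate malignant markers were at 9.23% of their malignant level with vehicle and 4.39% with Xevinapant. Vcam1 averaged 1060 CPM in microglia, 374 in macrophages and 28.2 in monocytes, and Ripk3 25.4, 44.8 and 70.1 CPM. Macrophages and monocytes with 2 or more Arg1 UMIs numbered 89 with vehicle and 414 with Xevinapant. The part of tumor RNA and of the gate's makeup was not tested. The other calls were of genes on the dissociation list, Hspa1b in microglia (1.92) and endothelial cells (3.06) and Fos in endothelial cells (2.20). The list was drawn from textbook knowledge, and what moved these genes was not tested. In malignant cells none of the 22 TNF receptors, 12 death signaling genes or 9 processing genes tested passed by edgeR, with 1, 2 and 4 at an unadjusted p under 0.05 and median log2 differences of 0.32, 0.11 and 0.44, beside 0.01 over all genes.

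Across 11 classes, the genes whose log2(CPM + 1) pattern was most like each member among 13386 genes were Plekhf2 for Tnf (Pearson r = 0.97), Gbp4 for Tnfsf10 (0.97), Usp3 for Fasl (0.96), Plbd2 for Tnfsf12 (0.96), Slc39a13 for Tnfrsf12a (0.97), Xcl1 for Lta (0.99), Frat2 for Ltb (0.96) and Xkr8 for Ltbr (0.99). The classes come from the same libraries and differ in depth, so these values describe likeness over 11 points.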

How the data were processed

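Single-cell suspensions of mGSC tumors were measured with a 10x Genomics kit. The authors mapped reads to mm10 and counted UMIs with Cell Ranger, and the deposited matrices hold raw UMI counts per gene and barcode. The stated version and that in the matrix headers differ, so none is given. The stated limits (at least 200 genes, at most 10% mitochondrial UMIs, complexity of at least 0.8) were applied here, and no doublet caller was run: barcodes with markers of several classes were set apart. The 8 genes and the gene lists were chosen with earlier results of these data known, and gate limits after seeing the data. Genes named from a list were at most the 3 called ones with the largest absolute changes in a class (Casp8 and Ripk3 levels added), and like genes those with the highest r, gate markers left out. Depths are in the report, and Poisson intervals (95%) cover counting error only.

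Counts were summed per sample and class (at least 10 cells) and tested with edgeR 4.0.16 (TMM, quasi-likelihood, Benjamini-Hochberg threshold 0.05) in R 4.3.3, after tests on simulated data, with DESeq2 1.42.0 as an alternative. T and NK cells were joined. Levels, shares and exact two-sided permutation tests used Python 3.11.15 with scipy 1.17.1. Each of the 16 alternatives (scaling, filters, gates, leaving samples out, 8 matrices as mice, matrix number as a block, 2 classes added) was run where it applied.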

Additional observations from a re-analysis of the deposited data

Results flagged for a closer look

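The 6570 barcodes outside all gates (median 1648 UMIs) entered no class and were counted in the whole-sample comparisons only. In them, 5 of the genes, pooled over barcodes, had a lower 95% Poisson bound over 1.5 times the upper bound in malignant cells. Tnf was at 4.07 CPM beside 0.319 in malignant cells, with 61 of its 194 UMIs in 1 barcode of Vehicle 1 and 3. Tnfsf10 was at 1.45 CPM beside 0.651, Fasl at 1.80 CPM beside 0.624 and Ltb at 1.51 CPM beside 0.484. Tnfrsf12a was at 154.5 CPM beside 56.6, with 141, 81.4 and 130.2 CPM in vehicle samples and 294 and 139.8 CPM in Xevinapant samples, so that the groups overlapped. Groups of 3 and 2 samples were too small for a check of single samples that stand apart.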

How the results depend on the processing

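The labels give no replicate numbers, and matrix numbers stand in file names. Same-numbered matrices did not deviate together in malignant cells (r of 0.21, -0.09, -0.20 and 0.16 for numbers 1 to 4, across 14164 genes), so the numbers were not taken as pairs. With the 8 matrices as mice and the number as a replicate block, added after seeing the data, 1 call was made within classes and 0 over whole samples. Of 39 source calls, 25 passed under all alternatives tried for them and 14 were lost under at least 1. The count ran from 29 to 37 when a sample was left out and from 33 to 40 otherwise. Of 499 alternative source values, 455 kept direction and side of the threshold, 38 kept only direction and 6 reversed: Ltbr without TMM in microglia (-0.0168) and fibroblasts (-0.0399), Ltbr by DESeq2 in monocytes (-0.00136), and, without Xevinapant 3 and 4, Lta in monocytes (-5.35), Fasl in neutrophils (-6.17) and Tnf in endothelial cells (-5.46), each with UMIs in few cells. With Xevinapant, within-class calls rose from 0 to 1 by DESeq2 and to 1 with the 8 matrices as mice, and whole-sample calls likewise to 1 and 1 and, leaving samples out, from 0 to 1. The whole-sample call came without Xevinapant 3 and 4 (log2 0.97, adjusted p = 0.036, edgeR's quasi-likelihood test), where 1 Xevinapant sample is left and is assumed to vary like the vehicle samples. All 6 calls, the one with the block included, were Tnfrsf12a, upward, and the cause was not tested. With the 8 matrices as mice, 10 of 96 UMI shares and 3 of 48 detection shares had a p under 0.05, against 0 otherwise. The count of differing changes between classes stayed at 0. Removing lesser copies of shared barcodes, chosen after seeing the data, changed no call. Depth limits what can be read for Lta and Fasl, for classes of few cells and for shallow ones such as neutrophils.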

Other observations

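Macrophages and monocytes were also split by Arg1, the arginase of alternatively activated macrophages, a split chosen after earlier results were seen. Arg1 is itself among the markers of the macrophage gate. Cells with 2 or more Arg1 UMIs numbered 89 with vehicle and 414 with Xevinapant, and cells with none 202 and 448, while 22 and 69 cells with 1 UMI were set apart (Tnfsf12 at 202 and 135 CPM). Levels here are pooled over cells unless given by sample. Tnfsf12 was at 153 CPM with vehicle and 154 CPM with Xevinapant in the cells with 2 or more, and at 91.0 and 113 CPM in those without. By sample, cells with 2 or more held 187, 188 and 89.0 CPM with vehicle and 149 and 173 CPM with Xevinapant. Cells without held 95.2, 81.6 and 91.1 CPM and 118 and 106 CPM, so Vehicle 4 did not show the difference. Ltb was at 0 and 0.848 CPM in the cells with 2 or more and at 16.3 and 12.4 CPM in those without, beside means of 26.2 CPM in all monocytes and 0.492 CPM in all macrophages, and the part of this class makeup in the split was not tested. Tnfsf10 was at 10.2 and 4.24 CPM against 23.0 and 15.8 CPM, and Tnf at 34.8 and 42.2 CPM against 31.6 and 51.5 CPM. Median depth differed as well, at 7312 and 8204 UMIs with 2 or more and 3400 and 4716 UMIs without.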
